A study of Drosophila melanogaster with 4 samples.

Results

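The regions described here are those enriched with an antibody against POF (MO 459) along 2L, the left arm of chromosome 2 and one of the large autosome arms of Drosophila melanogaster. A region belonged to the set if it lay on the sequence named 2L and its midpoint was at or below 21 Mb, which leaves out the end of the arm next to the centromere. The combined list, made by the authors for the replicate set, had 1809 such regions out of 11489 in all. The list of ChIP replicate 1 had 513 out of 3139, and the list of ChIP replicate 2 had 469 out of 2853. The shares were 15.7%, 16.3% and 16.4% of each list.

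The samples were whole embryos of the wild-type Oregon-R strain (Oregon-R-modENCODE), labelled 14 to 16 h of development and fixed with 1.8% formaldehyde. ChIP-seq, the sequencing of DNA recovered with an antibody from fixed chromatin, was done on 2 samples, and 2 inputs of genomic DNA served as their background, with no treatment, mutant or second stage. The labels do not say whether each replicate had its own embryo collection, and the spread between replicates may therefore be only technical. Whole embryos mix all cell types, so a region cannot be tied to a tissue. No POF mutant or unrelated antibody was analysed here, so POF binding and nonspecific recovery cannot be told apart at any region.

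POF takes its name from the painting of the fourth chromosome, the smallest autosome of this fly, where this RNA-binding protein coats active genes and stimulates their expression. It is tied there to the heterochromatin protein HP1a and is one of the few known factors that act on a whole autosome, a parallel to the dosage compensation complex on the male X. The arm 2L is not what POF is named for, and its regions show what the antibody recovered on a large, mostly euchromatic arm. Coordinates on 2L start at the telomere and run towards the centromere. Positions are counted from 1 on FlyBase release 5, the build named in the file headers, and no genes were assigned to them because an annotation of that release was not used here.

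Regions were scattered along the whole of the arm and covered a small part of it. They covered 4.77% of 2L in replicate 1 and 4.28% in replicate 2, a mean of 4.53% ± 0.348 (SD, n = 2). The combined list covered 14.6%. The median width was 1807 bp in replicate 1, with quartiles of 1506 and 2106 bp, and 1857 bp in replicate 2, with quartiles of 1464 and 2099 bp. In the combined list it was 1456 bp, with quartiles of 1147 and 1964 bp. No region was under 1301 bp in the replicate lists or under 1001 bp in the combined list.

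The amount of covered sequence on 2L lay among that of the other large arms. It was 4.53% ± 0.348 on 2L, against 5.29% ± 0.471 on 2R, 4.85% ± 0.316 on X, 4.82% ± 0.218 on 3R and 3.70% ± 0.396 on 3L (mean and SD of 2 replicates). These values leave out the end of 2L next to the centromere, while 2R, 3L, 3R and X were counted over their full length. With 2L cut in this way, its differences from X and from 3R were smaller than the SD of 2L. Over the whole of 2L the mean was 4.38%, and both differences were larger than that SD. In each replicate the cut 2L was below 2R, X and 3R and above 3L. Set against 2R, 3L, 3R and X together, 2L was covered 0.976 times as much in replicate 1 and 0.972 times in replicate 2 (exact two-sided sign-flip permutation test over n = 2 replicates, p = 0.5, the smallest this design allows). Over the whole of 2L the ratio was 0.943 for the 2 replicates together. In the combined list, with 2L cut, the ratio was 0.905, with no test because that list comes from the same samples. Chromosome 4, by contrast, was covered to 13.4% ± 0.371.

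Region widths on 2L had 2 common values in each replicate list. Of the replicate 1 regions, 69 measured 1301 to 1400 bp, numbers fell to 33 at 1601 to 1700 bp, and 54 measured 2001 to 2100 bp. Replicate 2 had 81, 27 and 62 regions in the same classes. Few regions were broad: 31 of replicate 1 and 25 of replicate 2 were over 3000 bp. Deposited scores, an enrichment value per region made by the authors and compared here only within a list, had medians of 0.685 in replicate 1, 0.632 in replicate 2, and 0.475 for combined regions. Across the regions of 2L, score and width were related in the replicate lists (Spearman rho 0.505 over 513 regions and 0.570 over 469) and hardly in the combined list (0.0412 over 1809). These are descriptions across regions of the same libraries.

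Most regions of each replicate list were also found in the other. In replicate 1, 301 of 513 regions, or 58.7% (95% Wilson interval 54.4 to 62.9), overlapped a replicate 2 region by at least 1 bp, beside 55.3% of that list over all sequences. In replicate 2, 304 of 469 regions, or 64.8% (60.4 to 69.0), overlapped a replicate 1 region, beside 61.1% over all sequences. Both shares on 2L were thus near those of the whole lists, and the background lay inside each interval. The intervals take regions as independent and cover counting error only. Of the 1.32 Mb covered by either list, 44.2% was covered by both.

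Width separated the regions that recurred from those that did not. In replicate 1 the overlapping share was 23.2% of the 125 regions of 1301 to 1500 bp, 51.0% of the 202 regions of 1501 to 2000 bp and 89.7% of the 155 regions of 2001 to 3000 bp. In replicate 2 it was 27.9% of 136, 65.2% of 155 and 91.5% of 153 regions. Above 3000 bp, 30 of 31 regions in replicate 1 and 25 of 25 in replicate 2 had a counterpart. The 1 exception was the replicate 1 region from 10735013 to 10738302, of 3290 bp. Wider regions also take up more sequence, and the part of this in the rise was not tested. Shares by width were not computed over all sequences, so the rise describes 2L and does not set it apart.

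**Figure D1:**
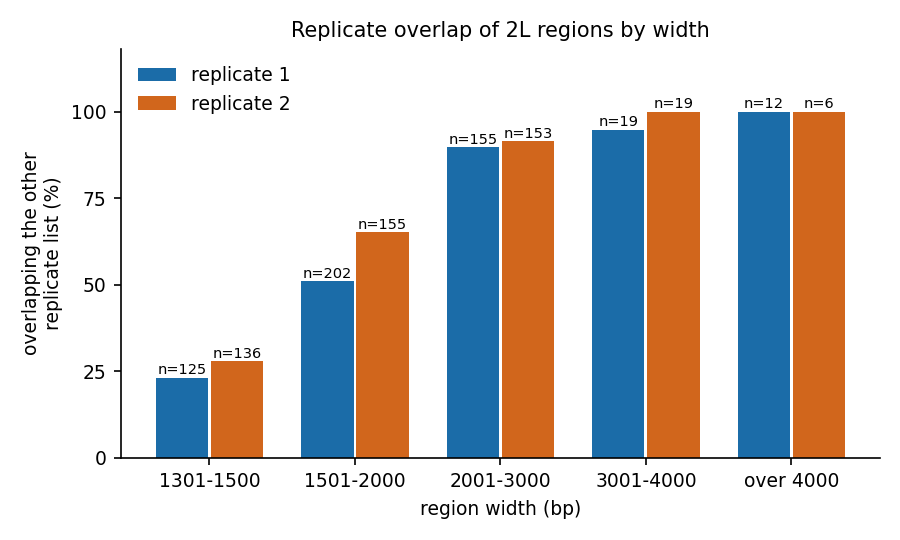
Share of 2L regions (vertical axis, percent) that overlapped a region of the other replicate list by at least 1 bp, by region width (horizontal axis, bp), for replicate 1 (blue) and replicate 2 (orange), with the number of regions above each bar. The share is 23.2% and 27.9% in the narrowest class and 100% of the 12 and 6 regions over 4000 bp.

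Score separated them less evenly. Regions were split by score into 4 classes of about 25% each. In replicate 1 the overlapping share was 75.0% in the class with the highest scores, and 53.1%, 49.2% and 57.4% in the next 3 classes going down. In replicate 2 these shares were 85.5%, 57.3%, 52.1% and 64.4%. In both lists the class with the lowest scores therefore had a higher share than the class above it, although its regions were narrower, with median widths of 1597 and 1530.5 bp. Shares by score class were not computed over all sequences either, so this order is not shown to be particular to 2L. Scores did not follow width at the narrow end: regions of 1301 to 1500 bp had a median score of 0.666 in replicate 1, against 0.616 for those of 1501 to 2000 bp.

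Where a region was found in both lists, its position was nearly the same. There were 295 regions matched one to one, and their centres differed by a median of 86 bp, with 155 of them within 100 bp and 29 over 500 bp apart. Starts differed by a median of 99 bp and ends by 113 bp. Widths of matched regions were related (Pearson r 0.657, Spearman rho 0.635 over 295 regions, a description), and the replicate 1 region was the wider in 157 and the replicate 2 region in 138. Fragmentation was rare, since 4 regions of replicate 1 spanned 2 or more of replicate 2, and 1 region of replicate 2 spanned 2 or more of replicate 1.

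Regions without a counterpart were mostly narrow and seldom lay within 1000 bp of a region of the other list. The 212 in replicate 1 had a median width of 1526 bp, and the 165 in replicate 2 had 1450 bp, while regions with a counterpart had 2036 and 2029 bp. The nearest region of the other list was a median of 10333 bp away for replicate 1 and 9975 bp for replicate 2. Near misses were few, with 20 and 18 of them within 1000 bp. Of these unmatched regions, 198 of 212 and 156 of 165 were nevertheless in the combined list, which held 97.3% of all replicate 1 regions of 2L, beside 97.4% over all sequences, and 98.1% of all replicate 2 regions, beside 97.9%.

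The combined list was longer and held many narrow regions. On 2L, 298 of its 1809 regions, a share of 16.5% (95% Wilson interval 14.8 to 18.3), met a region in each replicate list, beside 14.9% over all sequences. Another 194 overlapped replicate 1 only, 10.7% beside 11.3%, and 154 replicate 2 only, 8.51% beside 8.84%. The largest class, 1163 regions or 64.3% (62.1 to 66.5), overlapped neither, beside 65.0% over all sequences. All these shares were close to the background. Of the 1163, 667 were narrower than 1301 bp, the smallest width in the replicate lists, and among combined regions of at least that width 26.9% were in both lists and 44.7% in neither. Median widths were 2459 bp for regions in both lists and 1237 bp for regions in neither, and of the 35 combined regions over 4000 bp, 33 were in both lists and 0 in neither. These values by width have no background over all sequences beside them and do not set 2L apart.

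Coverage rose and fell along the arm in the same way in both replicates. The first 7 Mb, next to the telomere, was covered to 6.18% in replicate 1, 5.22% in replicate 2, and 18.4% for combined regions. The segment from 7 to 14 Mb had 4.11%, 3.94% and 13.2%, and that from 14 to 21 Mb had 4.02%, 3.68% and 12.2%. The sparsest segment did not have the least repeatable regions: the share of replicate 1 regions with a counterpart was 54.6%, 57.5% and 66.0% in the 3 segments, and that of replicate 2 regions was 64.0%, 61.0% and 70.1%.

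In bins of 1 Mb, the most covered were those from 6000001 to 7000000, with 8.64% in replicate 1 and 6.59% in replicate 2, and from 1 to 1000000, with 7.23% and 6.74%. They were followed by the bins starting at 2000001, 19000001 and 20000001, with means of 6.36%, 6.34% and 6.20%. Both ends of the stretch studied were therefore among its densest parts. The least covered bin ran from 17000001 to 18000000, with 0.832% in replicate 1, 0.786% in replicate 2, and 5.30% for combined regions, which was the lowest value of the 21 bins in each list. The next lowest bins started at 15000001, 11000001, 14000001 and 8000001, with means of 2.71%, 2.88%, 2.93% and 2.97%.

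**Figure D2:**
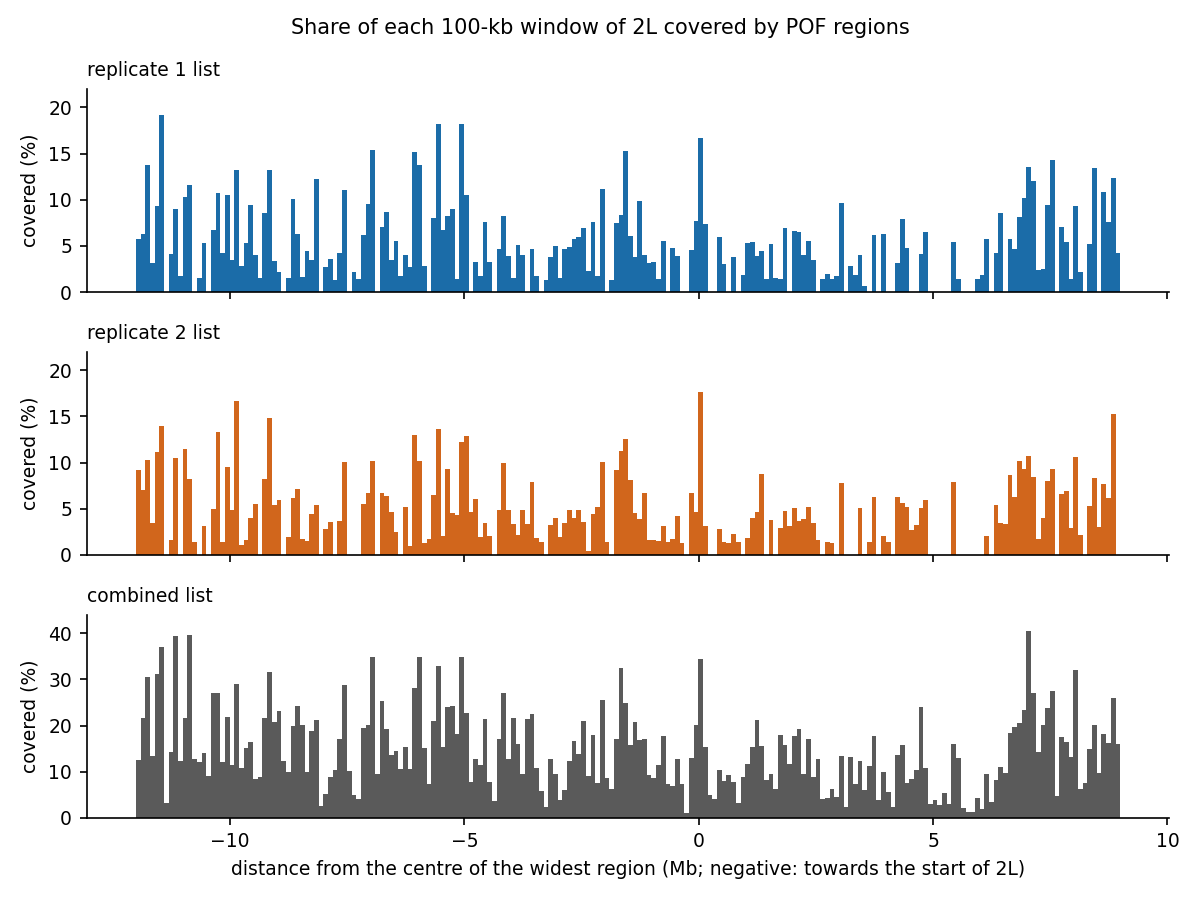
Share of each 100-kb window of 2L covered by regions (vertical axes, percent, with a longer scale for the combined list) in replicate 1 (top), replicate 2 (middle) and the combined list (bottom), against distance from the centre of the widest region (horizontal axis, Mb). The window at the centre has 16.7% in replicate 1 and 17.7% in replicate 2, and the replicate panels have wide empty stretches about 5 to 6 Mb to its right.

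Over the 210 windows of 100 kb, coverage in the 2 replicates had a Pearson r of 0.854 and a Spearman rho of 0.829. Without the 2 windows farthest from the replicate 1 median, r was 0.847 over 208 windows. These values describe neighbouring windows of a single arm, which are not independent, and share any base composition or mappability of the sequence. The median window was covered to 3.99% in replicate 1, 3.50% in replicate 2, and 13.0% for combined regions, and the median absolute difference between replicates was 1.52 percentage points. In 148 windows both replicates had regions. Replicate 1 had none in 42 windows, replicate 2 had none in 44, and 24 windows were empty in both.

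**Figure D3:**
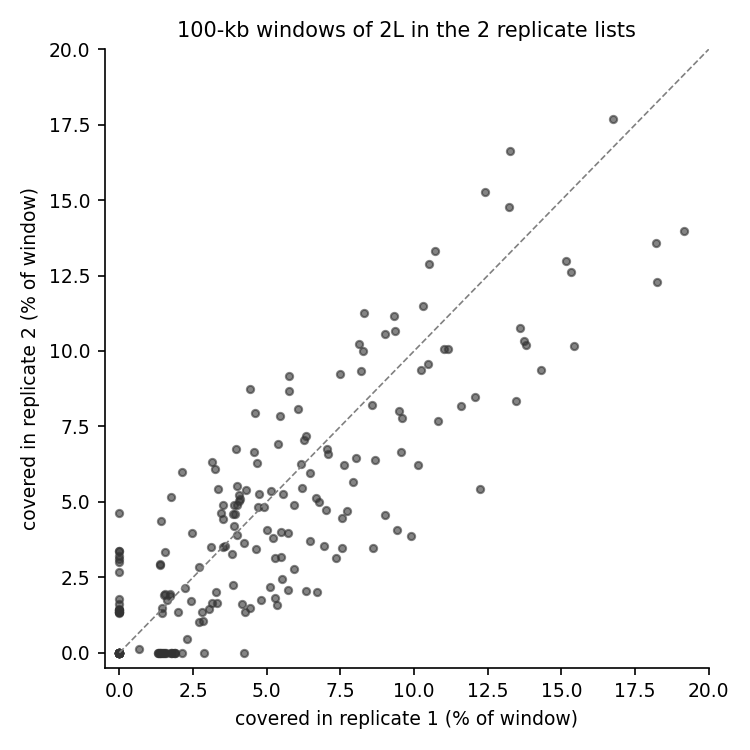
Each point is a 100-kb window of 2L, with its covered share in replicate 1 (horizontal axis, percent) and in replicate 2 (vertical axis, percent), and the dashed line marks equal shares. The points follow the line with r = 0.854 over 210 windows, and points on an axis are windows without regions in 1 replicate.

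The 5 windows with the highest mean replicate coverage were spread over the arm. The first ran from 12000001 to 12100000, with 16.7% covered in replicate 1, 17.7% in replicate 2, and 34.5% for combined regions. The window from 500001 to 600000 had 19.2%, 14.0% and 37.1%. The windows starting at 6400001, 6900001 and 2100001 had replicate means of 15.9%, 15.3% and 14.9%. Their replicate values differed by up to 5.97 percentage points, so the order among these 5 lies within the spread between replicates. The combined list had its highest value elsewhere, at 40.6% from 19000001 to 19100000.

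The replicates departed from each other most in a few windows. From 3800001 to 3900000 replicate 1 was covered to 12.2% and replicate 2 to 5.42%, and from 10700001 to 10800000 the values were 9.89% and 3.88%. In the other direction the largest difference was from 7100001 to 7200000, with 0% in replicate 1 and 4.65% in replicate 2, made by 3 regions.

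In the replicate lists most gaps between neighbouring regions were longer than 5000 bp, with shorter gaps in places. The median gap between neighbouring regions was 19685.5 bp in replicate 1 and 20265.5 bp in replicate 2. Combined regions were closer, with a median gap of 5049.5 bp. Gaps of up to 5000 bp made up 20.5%, 18.2% and 49.7% of all gaps. The widest 10% of gaps were over 103855 bp in replicate 1 and over 107538 bp in replicate 2.

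A cluster was taken as a run of at least 3 regions with gaps of at most 10 kb. Replicate 1 had 41 clusters with 31.0% of its regions and replicate 2 had 40 with 30.3%, while 218 and 207 regions stood alone. Clusters were short, with median spans of 18.5 and 17.7 kb. Of the 41 clusters of replicate 1, 22 overlapped a cluster of replicate 2, and all 41 held at least 1 replicate 2 region. Of the 40 clusters of replicate 2, 22 overlapped a cluster of replicate 1 and 1 held no replicate 1 region. The same shares over all sequences were not computed, so these counts describe 2L and do not set it apart. With gaps of at most 5 kb the mean number of clusters was 20.5 in place of 40.5. In the combined list 229 clusters held 76.9% of the regions.

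The largest cluster of replicate 1 had 8 regions in 52.9 kb, from 6446883 to 6499812, where replicate 2 had 6 regions and the combined list 12. Regions covered 34.4% of this span in replicate 1, 25.7% in replicate 2, and 55.4% for combined regions. The next had 7 regions from 539972 to 579563, and the same place held 1 of the 5 largest clusters of replicate 2, with 5 regions from 540085 to 575416, and a combined cluster of 25 regions, from 469883 to 579560, the most in any cluster of that list together with the one from 1074754 to 1187142. The densest of the named clusters ran from 19571678 to 19588211, where 5 regions covered 67.4% of 16.5 kb in replicate 1 and 4 regions covered 56.6% in replicate 2. The 4 replicate 2 regions formed a shorter cluster of their own, from 19571775 to 19582968, and covered 83.6% of it. Replicate 1 clusters starting at 1708879, 6046959 and 7789661 also had 5 regions, so the choice of named clusters of that size rests on a tie. The largest clusters of replicate 2 had 6 regions each, from 1704303 to 1730754 and from 7789734 to 7829496. Of these 6 regions, 3 had a replicate 1 counterpart in the first and 6 in the second.

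Long stretches without regions often overlapped between the replicates. Replicate 1 had 54 stretches of over 100 kb without a region, 43.2% of the arm, and 48 of them overlapped a stretch of that size in replicate 2. Replicate 2 had 58, 47.3% of the arm, and 47 of them overlapped one in replicate 1. Any overlap counted and such stretches filled much of the arm, so these counts alone do not show agreement. The same shares over all sequences were not computed. With both lists pooled, 41 stretches remained, 31.0% of the arm. The combined list had 5 stretches of over 100 kb, the longest of 137566 bp from 17242255 to 17379820. The other 4 measured 110294 to 125192 bp, and 2 of them lay close by, from 17709298 to 17834489 and from 18013290 to 18137106.

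The longest stretch empty in both replicate lists ran from 16889545 to 17409438, a length of 519894 bp. Its borders were alike in both replicates. On the left, the last region ended at 16889544 in replicate 1 and at 16889414 in replicate 2. On the right, the next region began at 17409439 in replicate 1 and at 17409445 in replicate 2. The combined list had 14 regions that lay in or reached into it and covered 3.48% of it.

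A group of 4 regions in replicate 1 and 5 in replicate 2 followed, and then the arm emptied again. Replicate 1 had no region for 422190 bp, from 17540379 to 17962568, and replicate 2 had none for 658464 bp, from 17492961 to 18151424. Replicate 1 resumed with a weak region from 17962569 to 17964039, with a score of 0.446 and rank 502 of 513, and had 2 more regions before a stronger one from 18150970 to 18153490, with 0.976 and rank 41. Replicate 2 resumed with the counterpart of that stronger region, from 18151425 to 18153512, with 0.933 and rank 39 of 469. The other pooled stretches among the 5 longest measured 226563 to 287529 bp.

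**Figure D4:**
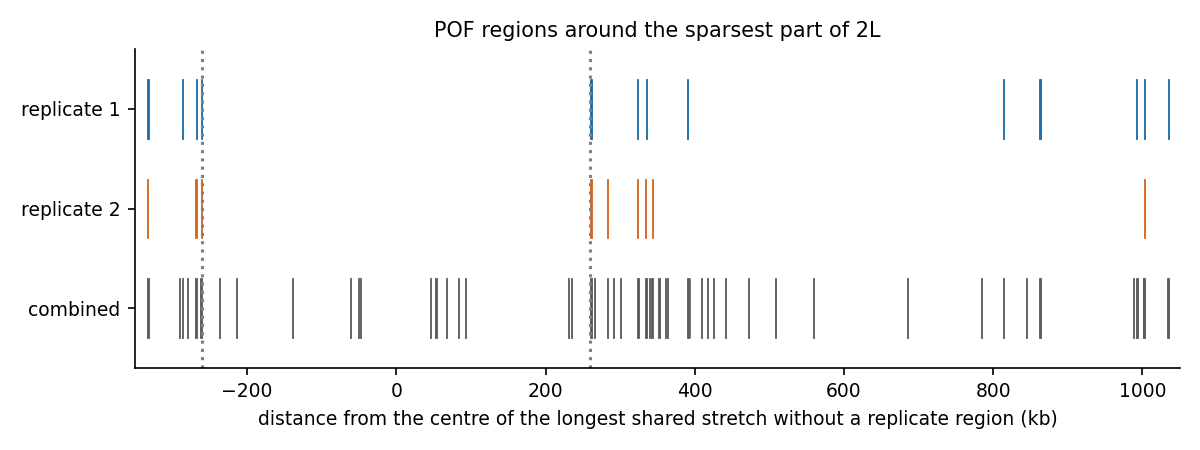
Positions of regions in replicate 1 (top row), replicate 2 (middle row) and the combined list (bottom row) around the sparsest part of 2L, against distance from the centre of the longest stretch empty in both replicate lists (horizontal axis, kb). Dotted lines mark the ends of that stretch, 519894 bp apart, and the few combined regions inside it stand without replicate regions.

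Combined regions were present inside the stretches that the replicate lists left empty, but thinly. The 41 pooled stretches of over 100 kb held 279 regions of the combined list, a density of 42.9 per Mb, while the rest of the arm had 105.5 per Mb. This contrast follows in part from how the stretches were chosen, since the lists share samples. The regions inside had a median width of 1170 bp and a median score of 0.486. Combined regions outside the stretches that overlapped neither replicate list had medians of 1263.5 bp and 0.463. The highest score inside was 1.66. Every 100-kb window of the arm held some combined coverage, down to 1.06% from 11700001 to 11800000, which held 1 combined region.

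The widest replicate region lay near 12 Mb, inside the window with the highest mean replicate coverage, of which the region itself is a part. In replicate 1 it ran from 12002156 to 12013453, a width of 11298 bp with a score of 1.48, which ranked 4 of 513 on the arm. In replicate 2 the same place held 2 regions, from 12002216 to 12008612 with a width of 6397 bp and a score of 1.37, and from 12009246 to 12013084 with 3839 bp and 1.21. A gap of 633 bp separated them. In the combined list it was again 1 region, from 12001281 to 12013371, with 12091 bp and a score of 1.32.

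The outer edges were close in the replicates. The left edge differed by 60 bp and the right edge by 369 bp between the replicates, and the replicate 2 regions covered 90.6% of the replicate 1 span. Joined over the gap, as when neighbours closer than 1000 bp are merged, the replicate 2 regions measured 10869 bp. The replicate 1 region and the larger replicate 2 region were each the widest of their list over all sequences, and the combined region was second in width in its list. The next widest region of replicate 1 on 2L had 5894 bp, so the first was 1.92 times as wide. The next widest had 5406 bp in replicate 2, and the combined list's next had 7357 bp.

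Its surroundings were ordinary by comparison. Within 50 kb on either side replicate 1 had 5 other regions of 1513 to 2310 bp with scores of 0.536 to 0.821. Replicate 2 had 4 others of 1384 to 2687 bp with scores of 0.468 to 0.875. The combined list had 16 others of 1097 to 3174 bp with scores of 0.334 to 0.839. Of the others, the regions near 12039687 and near 11969954 were in all 3 lists. The nearest other region of replicate 1 was 10710 bp away, that of replicate 2 was 3626 bp away and that of the combined list 1217 bp away.

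**Figure D5:**
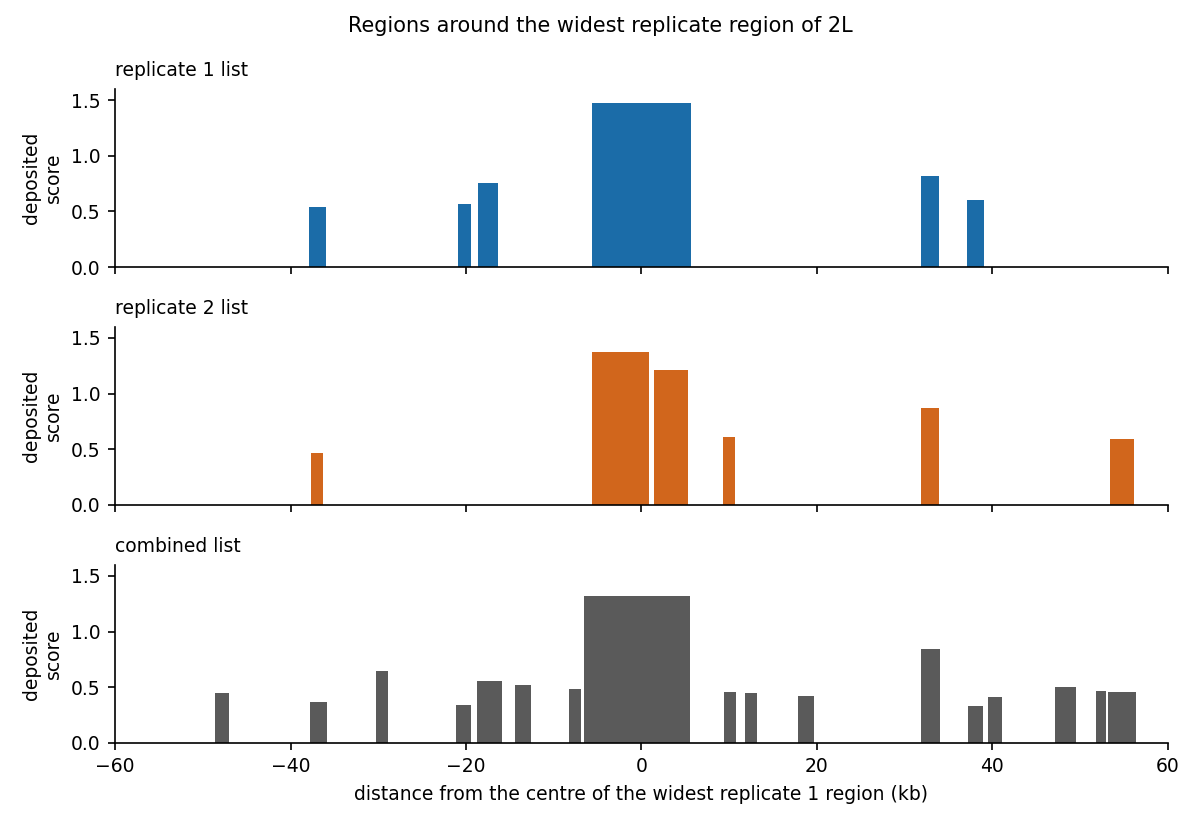
Regions within 50 kb of the widest replicate 1 region, drawn to scale against distance from its centre (horizontal axis, kb), with bar height as the deposited score (vertical axes, compared only within a list). The region is unbroken in replicate 1 (11298 bp) and in the combined list (12091 bp) and split by a gap of 633 bp in replicate 2.

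Other broad regions also recurred. The region from 2195719 to 2201174 in replicate 1, of 5456 bp, matched one from 2195658 to 2201063 in replicate 2, of 5406 bp. Their scores were 1.13 and 1.16, at rank 14 and rank 12 on the arm. A region from 2748681 to 2753584 in replicate 2 measured 4904 bp and its replicate 1 counterpart 4902 bp, but its score of 0.651 ranked only 210 of 469, so breadth and score did not always go together. The replicate 1 region from 5977728 to 5983621 had 5894 bp and its counterpart 4096 bp. The replicate 1 region from 15910529 to 15915545 had 5017 bp, while its counterpart had 2033 bp. From 2803788 to 2809461, replicate 1 had 1 region of 5674 bp where replicate 2 had a pair of 2480 and 2596 bp, a second place where a broad region was split in replicate 2. Among the widest combined regions, the one from 19011128 to 19017617, of 6490 bp, spanned 2 replicate 1 regions and 1 replicate 2 region.

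The best scoring combined regions that overlapped both lists lay at both ends and in the middle of the arm. The first, from 5518348 to 5521478, scored 1.59 in the combined list. Its replicate 1 counterpart scored 1.81, the highest on 2L, and its replicate 2 counterpart 1.78, at rank 2. The next, from 2803733 to 2809489, scored 1.55, and the right-hand one of its 2 replicate 2 regions, at 1.83, was the highest of that list on 2L. At 7798747 to 7801179 the combined score was 1.51. The replicate scores were 1.32 in replicate 1, at rank 7 on the arm, and 1.72 in replicate 2, at rank 3.

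At 20863842 to 20866129 the combined score was 1.32, and the replicate regions scored 1.35 and 1.36. Its edges differed between the replicates by 4 bp on the left and 21 bp on the right, and it was the last replicate 2 region inside the 21-Mb limit. The region from 573055 to 575490 also scored 1.32, with 1.33 and 1.44 in the replicates, and lay inside the cluster that starts at 539972. The region from 20119986 to 20122226 was less even, with a combined score of 1.22 and rank 3 in replicate 1 against rank 30 in replicate 2.

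The remaining 4 of the 10 were the wide region at 12 Mb, the region from 2195654 to 2201256 at 1.12, the region from 6610555 to 6613988 at 1.12 and the region from 478063 to 482413 at 1.07. Of all 10, the replicate 1 counterparts ranked between 1 and 14 on the arm, and the best replicate 2 counterparts between 1 and 30. High ranks follow in part from the choice by combined score, since the combined list comes from the same samples. Over all sequences the best of the 10 ranked 71 in the combined list. The 10 combined regions were all wide for their list: the narrowest had 2241 bp, above the upper quartile of 1964 bp, and 4 were over 4000 bp, as were 35 of all 1809 combined regions. The choice itself favoured width, since the 298 combined regions in both lists had a median of 2459 bp and included 33 of those 35. Those starting at 7798747, 20863842, 573055 and 20119986, with 2433, 2288, 2436 and 2241 bp, were below that median.

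At the 21-Mb limit, the last region inside ran from 20987403 to 20988749 with a score of 0.586 in replicate 1, from 20863874 to 20866115 with 1.36 in replicate 2 and from 20987186 to 20988954 with 0.480 in the combined list. The first region outside began at 21050850 in replicate 1 with 0.674, at 21050857 in replicate 2 with 0.621 and at 21008053 in the combined list with 0.385. Beyond the limit 2L had a further 27, 33 and 107 regions in replicate 1, replicate 2 and the combined list.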

How the data were processed

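The lists hold regions that the authors called significantly enriched, 1 list for each ChIP replicate and 1 for the replicate set, on FlyBase release 5 per the file headers. The submitters' processing notes name Bowtie 0.12.7. How regions were called, at which threshold, and how the replicates were joined is not given in the sources used here. Each deposited score is an enrichment value made by the authors, and its scale is not named. Of the 2L scores other than the list's commonest, 20.4%, 11.2% and 11.1% in replicate 1, replicate 2 and the combined list lay at a log2 distance from it that whole numbers up to 60 give as a ratio (tolerance 1e-09), and with natural logarithms 0 did, so the score was read as a log2 ratio. The lists carry no read counts, so the depth behind them is unknown. Input libraries were not analysed here.

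Groups and replicate numbers came from the sample titles. Regions that shared at least 1 bp counted as overlapping, and coverage counts each base once. The 2L length used was 21 Mb. The only test is an exact two-sided sign-flip permutation over 2 replicates, and all other values are descriptions. Shares have 95% Wilson intervals. The regions and the lists of features were chosen with earlier results of these data known. Named features are the 10 best scoring combined regions found in both replicate lists, the 5 widest regions, longest empty stretches, largest clusters and most covered windows, the extreme 1-Mb bins, and the surroundings of the widest region within 50 kb; the windows where the replicates differ most and the borders of the emptiest stretch were picked after their values were seen. The functions were tested on simulated data with known overlaps, gaps and clusters. The tools were pandas 2.3.3, numpy 2.4.6 and scipy 1.17.1 under Python 3.11.15, with matplotlib 3.10.9 for the plots. No sequences are given because no genome of release 5 was used here.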

Additional observations from a re-analysis of the deposited data

How the results depend on the processing

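The replicate overlap of 58.7% and 64.8% stayed within its intervals with reciprocal overlap of 50%, 500-bp extensions, merged neighbours or the whole of 2L, and was 49.8% and 54.6% in the better scoring 50% of each list. Each list was cut for this, so a region whose counterpart scored lower counted as unmatched, also in the combined shares below. The cut was made over all sequences and left 223 and 207 regions of 2L. The score classes split the 2L regions alone, so they are not the same set of regions. Against the full other list, the highest score class and the next one down had 75.0% and 53.1% in replicate 1 and 85.5% and 57.3% in replicate 2. The combined share in both lists was 14.3% with reciprocal overlap of 50%, 20.6% with 500-bp extensions, 13.7% in the better scoring 50%, 19.5% after merging neighbours closer than 1000 bp and 26.9% at widths of at least 1301 bp. The share in neither list was 57.9% with extensions, 69.2% in the better scoring 50%, 60.6% after merging and 44.7% at that width. Coverage was 2.29% in the better scoring 50%, which holds fewer regions, 4.38% over the whole of 2L and 4.28% to 4.77% without either replicate. The coverage ratio stayed below 1 under each alternative, from 0.863 in the better scoring 50% to 0.976, with 0.972 to 0.976 without either replicate. The window correlation was 0.822 at 50 kb, 0.932 at 1 Mb and 0.754 in the better scoring 50%. The 24 empty windows were 116 of 420 at 50 kb, since smaller windows are emptier, and 42 to 44 in a single replicate. Clusters numbered 20.5 with gaps of at most 5 kb, 60.5 at 20 kb, and 40 to 41 without either replicate. Where no reason is given, the cause was not tested. No paired analysis was possible because only ChIP lists were used, and no list of input regions was analysed here to set beside them. Because depth is unknown, a place with no region may only have been too weak to be called.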

Other observations

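The combined list had strong but narrow regions on 2L that neither replicate list held. Its best scoring region on the arm, from 10946901 to 10947956, had a score of 1.66 and a width of 1056 bp. Others ran from 20154073 to 20155091, with 1.09 and 1019 bp, from 20895667 to 20896829, with 1.02 and 1163 bp, and from 6876604 to 6877667, with 0.993 and 1064 bp. Of the 50 best combined scores on 2L, 39 belonged to regions in both replicate lists and 10 to regions in neither, and all 10 were narrower than 1301 bp. Of the 200 best, 145 were in both and 47 in neither, 41 of them below that width. Counts for the best scores over all sequences were not made, so these describe 2L and do not set it apart. The deposited replicate lists hold no region below that width, so these values do not show whether the replicates had signal there.

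Some strong regions of a single replicate had no counterpart, chosen here after their values were seen. The best in replicate 1 ran from 20900658 to 20902039, with 1382 bp, a score of 1.01 and rank 29 of 513. The best in replicate 2 ran from 15682692 to 15684055, with 1364 bp, a score of 1.04 and rank 20 of 469. Both were in the combined list.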
